A study of Mus musculus with 70 samples.

Results

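CD45- cells of the histotripsy-abscopal tumor, the untreated tumor on the flank opposite an ablated tumor, were compared with CD45- cells of control tumors on day 3, over every gene of the count table. The comparison used all 7 histotripsy-abscopal and all 4 control libraries that the labels place in this cell fraction and day, out of 70 libraries in the series. The 7 histotripsy-treated libraries of the same fraction and day were fitted together with these 11, so that they share the filter on low counts and the estimate of the spread, and the 4 histotripsy-abscopal and 11 control CD45- libraries of day 7 entered the test between the days.

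B16F10 cells, a pigmented mouse melanoma line, were grown in both flanks of male and female C57BL/6 mice bought at 6 to 8 weeks of age. Control mice received a unilateral sham procedure, and the other mice received partial histotripsy ablation of 1 tumor, in which focused ultrasound pulses break tissue by cavitation. Tumors were dissociated with collagenase and hyaluronidase and then trypsin, red cells were lysed, and CD45- cells were sorted by flow cytometry. The mice were not randomized and the investigators were not blinded. The labels give no sex, age or batch for a library and do not say which flank of a control mouse was sorted, and they do not state that each library came from a separate mouse, so the p-values measure only the spread between these libraries, part of which may be technical. The paper's figure on these day 3 cells gives fewer mice per group than the 7 histotripsy-abscopal libraries. CD45 is found on blood-derived cells, so the CD45- fraction contained melanoma cells together with fibroblasts, endothelium and any other cell without CD45, and in such a bulk library fewer cells of a type and less RNA per cell cannot be told apart.

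Melanoma cells keep much of the program of the melanocyte: the transcription factors Mitf and Sox10 drive pigment enzymes and melanosome proteins. Cells that are stretched, injured or exposed to growth factors switch on immediate early genes within minutes, mostly transcription factors of the Fos, Jun, Egr, Klf and Atf families, while heat shock genes and the unfolded protein response answer misfolded protein. Interferons released near dying or infected cells raise antiviral genes and the antigen presentation machinery, which makes these programs the usual readouts of an inflamed tumor.

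Total counts ranged from 1080212 to 3820705 in the 7 histotripsy-abscopal libraries (median 2871461) and were 1620780, 2129471, 2320665 and 2403889 in control replicates 1 to 4. The mean totals did not differ beyond their spread (two-sided exact permutation test over 330 divisions, p = 0.318). Histotripsy-abscopal replicate 6 was the shallowest library and stood apart on the first principal component of these 11 libraries, at 21 against -11.5 to 3.8 for the others. On this component control replicates 1 and 2 were at 2.6 and 3.6, and control replicates 3 and 4 were lowest, at -11.5 and -7. Ptprc, the gene of CD45, had 0 or 1 count in each of the 11 libraries. Of the immune markers, 9 of 10 neutrophil, 10 of 14 monocyte and macrophage, 9 of 10 T cell, 7 of 8 NK cell and 7 of 7 B cell genes had at most 3 counts in every library.

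The main pigment genes were at nearly the same level in both groups. Dct, the enzyme dopachrome tautomerase of melanin synthesis, ran from 20540 to 29340 CPM (counts scaled to library size with edgeR's TMM factors) in histotripsy-abscopal tumors, with a median of 23880, and stood at 23950, 26150, 20400 and 26700 CPM in control replicates 1 to 4. The log2 fold change of Dct was 0.00, with a 95% interval of -0.25 to 0.25. Pmel, which forms the fibrils of the melanosome, had a log2 fold change of -0.06 (interval -0.31 to 0.18), and Tyrp1, another pigment enzyme, of -0.02 (interval -0.24 to 0.20). Each of these intervals lies well inside a 2-fold change in either direction. Mitf was at 1333 to 1704 CPM (median 1544) against 1402, 1154, 1298 and 1369 CPM, a log2 fold change of 0.22 with an interval of -0.05 to 0.48. Of the 20 melanocyte and pigment genes tested out of 24 listed, 6 were higher and 14 lower in histotripsy-abscopal tumors and the median log2 fold change was -0.05. At an unadjusted p under 0.05 in edgeR's test stood 1 higher member, Sox10 (0.28), and 1 lower, Trpm1 (-0.39). Among all genes those shares were 2.72% and 2.47%. The median over all 10921 genes tested was 0.00, with 50.1% of genes higher.

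Across all genes, 0 of 10921 (0%) passed an adjusted p of 0.05 in edgeR's quasi-likelihood test, and the smallest adjusted p was 0.135. An unadjusted p under 0.05 was reached by 567 genes (5.19%), of which 297 (2.72%) were higher and 270 (2.47%) were lower in histotripsy-abscopal tumors. limma-voom also called 0 genes, while DESeq2 called 13, of which 10 were higher and 3 lower. The 95% interval of the log2 fold change lay within a 2-fold change for 9437 genes (86.4%) and within a 1.5-fold change for 6483 genes (59.4%), at a median SE of 0.18. In 57 genes (0.522%) every histotripsy-abscopal library was above every control library, and in 35 (0.32%) every one was below. Scaled by library totals alone, the same split was 39 higher and 49 lower. The genes described first below are those with the smallest unadjusted p among the non-overlapping genes of at least 10 CPM, of which there were 39 higher and 26 lower, so their lack of overlap is a condition of their choice.

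Among the higher genes the transcription factors Klf4 and Atf3 differed most, each close to 2-fold. Klf4, a zinc finger factor and immediate early gene known for its part in reprogramming cells to pluripotency, lies at chr4:55527143-55532466 on the minus strand (GRCm38). Klf4 ran from 294.9 to 676 CPM in histotripsy-abscopal tumors (median 413) and was at 182, 212, 266 and 257 CPM in control replicates 1 to 4. All 7 libraries were above all 4, with replicate 6 highest and replicate 7 lowest. The log2 fold change of Klf4 was 1.0 (SE 0.17, interval 0.65 to 1.36), and its edgeR adjusted p of 0.135 did not pass the threshold. Without histotripsy-abscopal replicate 6 the log2 fold change of Klf4 was 0.89 (adjusted p = 0.158), and without replicate 7 Klf4 passed the threshold (adjusted p = 0.0122). Over the 11 fits with 1 library left out, the edgeR adjusted p of Klf4 ran from 0.0122 to 0.620, and 1 passed the threshold.

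Atf3, a stress-induced factor of the ATF and CREB family that is shared by the immediate early and unfolded protein responses, lies at chr1:191170296-191218039 on the minus strand. Atf3 was at 68.5 to 156 CPM in histotripsy-abscopal tumors (median 89.8) and at 51.8, 57.4, 62.9 and 45.9 CPM in control tumors. The groups did not overlap, and replicates 4, 5 and 6 were well above the other 4 histotripsy-abscopal libraries. The log2 fold change of Atf3 was 1.0 (SE 0.21, interval 0.56 to 1.44, edgeR adjusted p = 0.291). With 1 library left out in turn, this adjusted p ran from 0.141 to 0.967. In histotripsy-treated tumors, compared with the same control libraries, Atf3 was higher by 1.21 and was among the 10 of 10921 genes (0.0916%) that passed the test (edgeR adjusted p = 0.0272).

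Klf4 and Atf3 are shown with the RefSeq promoter windows of their genes (GRCm38.p6, from 250 bases before to 50 bases after the transcription start, read along the gene), because they are the 2 transcription factors of the immediate early list whose groups did not overlap. The capitals mark CGTCA, the reverse complement of TGACG, the core letters of sites read by ATF and CREB factors. The window of Klf4 is chr4:55532426-55532725 and that of Atf3 is chr1:191183284-191183583, both on the minus strand.
Klf4: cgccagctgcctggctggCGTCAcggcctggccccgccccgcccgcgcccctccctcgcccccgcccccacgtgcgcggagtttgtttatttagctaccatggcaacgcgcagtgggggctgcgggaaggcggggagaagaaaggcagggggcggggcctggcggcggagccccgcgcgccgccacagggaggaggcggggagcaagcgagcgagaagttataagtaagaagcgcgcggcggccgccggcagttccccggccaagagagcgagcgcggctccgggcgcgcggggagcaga
Atf3: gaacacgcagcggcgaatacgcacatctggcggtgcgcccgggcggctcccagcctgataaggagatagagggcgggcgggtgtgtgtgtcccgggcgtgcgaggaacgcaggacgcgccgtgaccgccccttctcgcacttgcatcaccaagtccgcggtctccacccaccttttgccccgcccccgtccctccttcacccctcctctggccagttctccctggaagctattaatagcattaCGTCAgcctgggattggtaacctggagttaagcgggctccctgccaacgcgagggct

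In the window of Klf4 the letters start 232 bases before the transcription start, and in that of Atf3 they start 7 bases before it. Atf3 also holds the longer TGACGTNA, which overlaps the same letters. Searched on both strands, TGACG was found in the windows of 37.6% of the 8240 tested genes that have a window, TGACGTNA in 6.25% and the AP-1 letters TGANTCA in 5.83%. TGACG was found in 3 of the 6 higher genes with a window among the 8 described here and in 2 of 6 lower genes, TGANTCA in 1 of 6 and 1 of 6, so these letters are common and a match is only a description of the sequence.

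**Figure D1:**
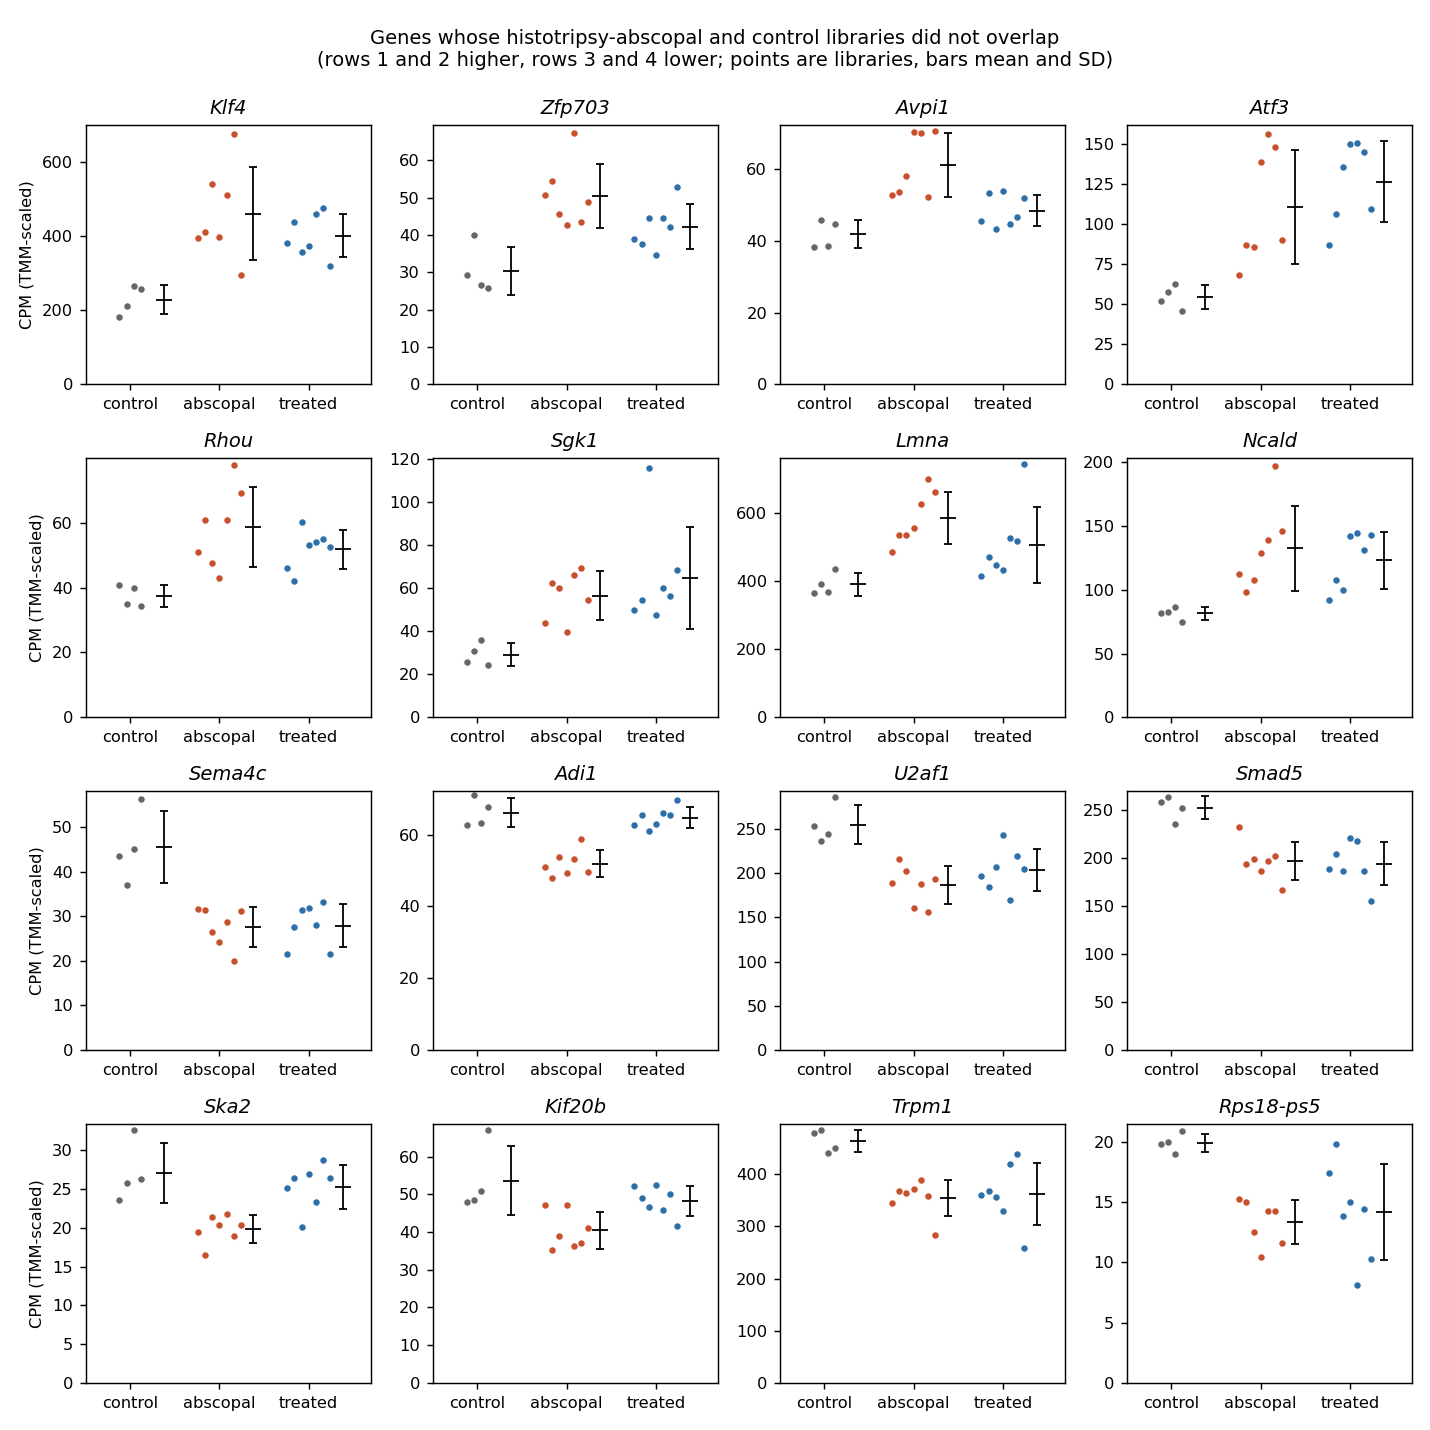
TMM-scaled CPM of the 8 higher genes (rows 1 and 2) and 8 lower genes (rows 3 and 4) in CD45- libraries of day 3, with points for the 4 control, 7 histotripsy-abscopal and 7 histotripsy-treated libraries and bars for the mean and SD. The genes were chosen for the gap between the first 2 groups, and the histotripsy-treated libraries, which entered the choice through the filter, scaling and spread of the shared fit but not through the gap, lay between 321 and 477 CPM for Klf4 and between 60.9 and 69.7 CPM for Adi1.

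The other higher genes of this choice differed by 1.46-fold to 1.93-fold and did not pass the test. Sgk1, a kinase that regulates ion channels and is induced by glucocorticoids and osmotic stress, was at 39.5 to 69.2 CPM (median 60.1) against 25.6, 30.6, 35.9 and 24.2 CPM. Its log2 fold change was 0.94 (edgeR adjusted p = 0.339), and in histotripsy-treated against control tumors it was 1.14 (adjusted p = 0.0481). Zfp703, a zinc finger repressor, was at 42.8 to 67.3 CPM (median 48.9) against 29.4, 39.9, 26.6 and 25.9 CPM, with control replicate 2 close to the lowest histotripsy-abscopal library. Its log2 fold change was 0.74 (adjusted p = 0.291). Lmna encodes lamins A and C, the intermediate filaments under the nuclear envelope, and was at 486 to 699 CPM against 364, 391, 369 and 436 CPM, a log2 fold change of 0.58. Ncald, a neuronal calcium sensor, was higher by 0.69, Rhou, a small GTPase, by 0.64, and Avpi1 by 0.55 on the log2 scale. Lmna, Ncald and Sgk1 shared an adjusted p of 0.339.

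Sema4c led the lower genes. Sema4c is a transmembrane semaphorin that signals through plexin B receptors, and it lies at chr1:36548639-36558349 on the minus strand. It was at 19.9 to 31.6 CPM in histotripsy-abscopal tumors (median 28.8) and at 43.5, 37, 45.1 and 56.3 CPM in control tumors, with no overlap. The log2 fold change of Sema4c was -0.70 (SE 0.15, interval -1.0 to -0.39, edgeR adjusted p = 0.291). In histotripsy-treated tumors, set against the same 4 control libraries, it was -0.70 (adjusted p = 0.0644).

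The other lower genes differed by 1.28-fold to 1.37-fold, except for Rps18-ps5 at -0.58 on the log2 scale, a ribosomal protein pseudogene whose reads may come from its parent gene. Adi1, an enzyme of the methionine salvage pathway, was at 47.9 to 58.8 CPM against 62.6, 71, 63.3 and 67.6 CPM, a log2 fold change of -0.36 (edgeR adjusted p = 0.325). In histotripsy-treated tumors Adi1 was at 60.9 to 69.7 CPM, which overlapped the control tumors, with the lowest treated value below every control library. Treated against histotripsy-abscopal, Adi1 was higher by 0.32 (edgeR adjusted p = 0.0518). U2af1, a splicing factor that reads the end of the intron, was at 156 to 216 CPM against 253, 236, 244 and 287 CPM, a log2 fold change of -0.45. Smad5, which carries BMP signals to the nucleus, was lower by 0.36 on that scale, and Trpm1, an ion channel and Mitf target of the melanocyte, by 0.39. Ska2 and Kif20b act in the mitotic spindle and in cytokinesis, and their log2 fold changes were -0.45 and -0.41. DESeq2 called 10 of these 16 genes, namely Klf4, Atf3, Sgk1, Zfp703, Lmna, Ncald, Rhou, Avpi1, Sema4c and U2af1. The 16 were chosen for a small unadjusted p on the same counts, so these calls are no separate evidence, and limma-voom called 0 genes.

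**Figure D2:**
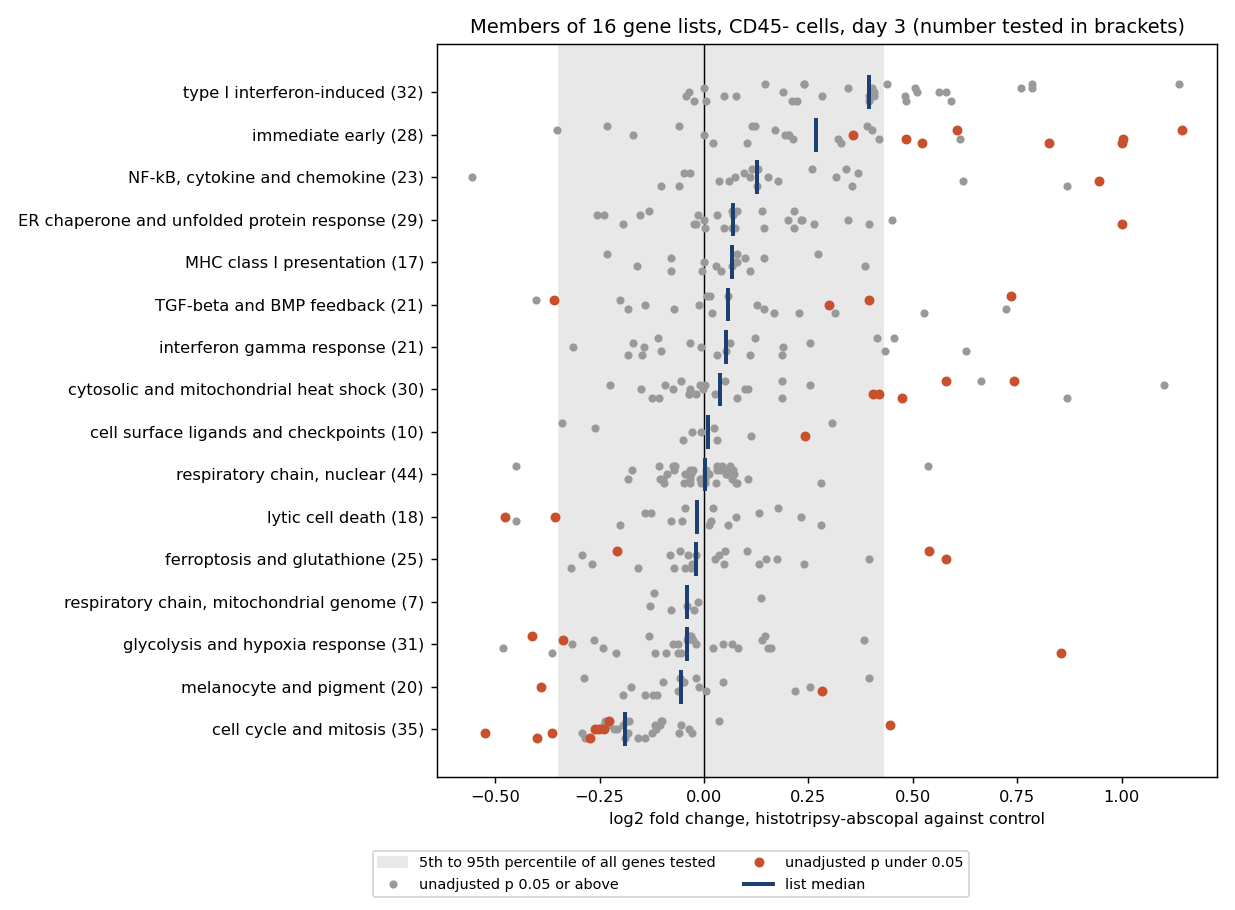
Log2 fold change of each tested member of 16 gene lists, histotripsy-abscopal against control CD45- libraries of day 3. Points are genes, filled in orange at an unadjusted p under 0.05, the dark bar is the list median and the gray band holds the 5th to 95th percentile of all genes tested. The type I interferon-induced list has the highest median at 0.40 with no orange point, the immediate early list has 8 orange points to the right, and the cell cycle list has the lowest median at -0.19.

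Immediate early genes were higher as a group in the fold changes, though no member passed the adjusted test. Of 28 members tested out of 29 listed, 23 had positive and 5 negative log2 fold changes, and their median was 0.27 against 0.00 over all genes. At an unadjusted p under 0.05 stood 8 higher members and 0 lower, which is 8 of 28 beside the 2.72% of all genes. Besides Klf4 and Atf3 these were Fosb (0.83), Fosl2 (0.48), Jund (0.61), Egr3 (1.14, at 1.65 to 5.61 CPM), Ier5 (0.52) and Klf6 (0.36), named after their values were seen. Fosb, an AP-1 subunit, was at 114 to 194 CPM (median 175) against 46.7, 70.1, 148 and 89.7 CPM, so that control replicate 3 fell within the histotripsy-abscopal range. Fos itself was at 126 to 286 CPM (median 188) against 116, 144, 304 and 260 CPM, and its log2 fold change was -0.06 with an interval of -0.54 to 0.42. Tumors of both groups were dissociated with enzymes and sorted before RNA was extracted. The part of this handling in the immediate early and heat shock values was not tested.

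The mean log2 CPM of the immediate early list was 5.41 to 5.84 in histotripsy-abscopal libraries (median 5.71) and 5.13, 5.27, 5.64 and 5.29 in control libraries. Control replicate 3 lay within the histotripsy-abscopal range and the other 3 control libraries lay below all 7. Leaving out that library gave a list median of 0.37 with 26 of 28 members higher, and leaving out histotripsy-abscopal replicate 6 gave 0.24 with 24 of 28. Over 17 alternative settings the list median ran from 0.19, without histotripsy-abscopal replicate 7, to 0.37, and 20 to 26 members were higher. Against the same control libraries, the list median in histotripsy-treated tumors was 0.71 with 26 of 28 members higher. All 13 tested fibroblast markers were also higher in that comparison, with a median of 2.96. The part of fibroblast content in the immediate early values was not tested.

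**Figure D3:**
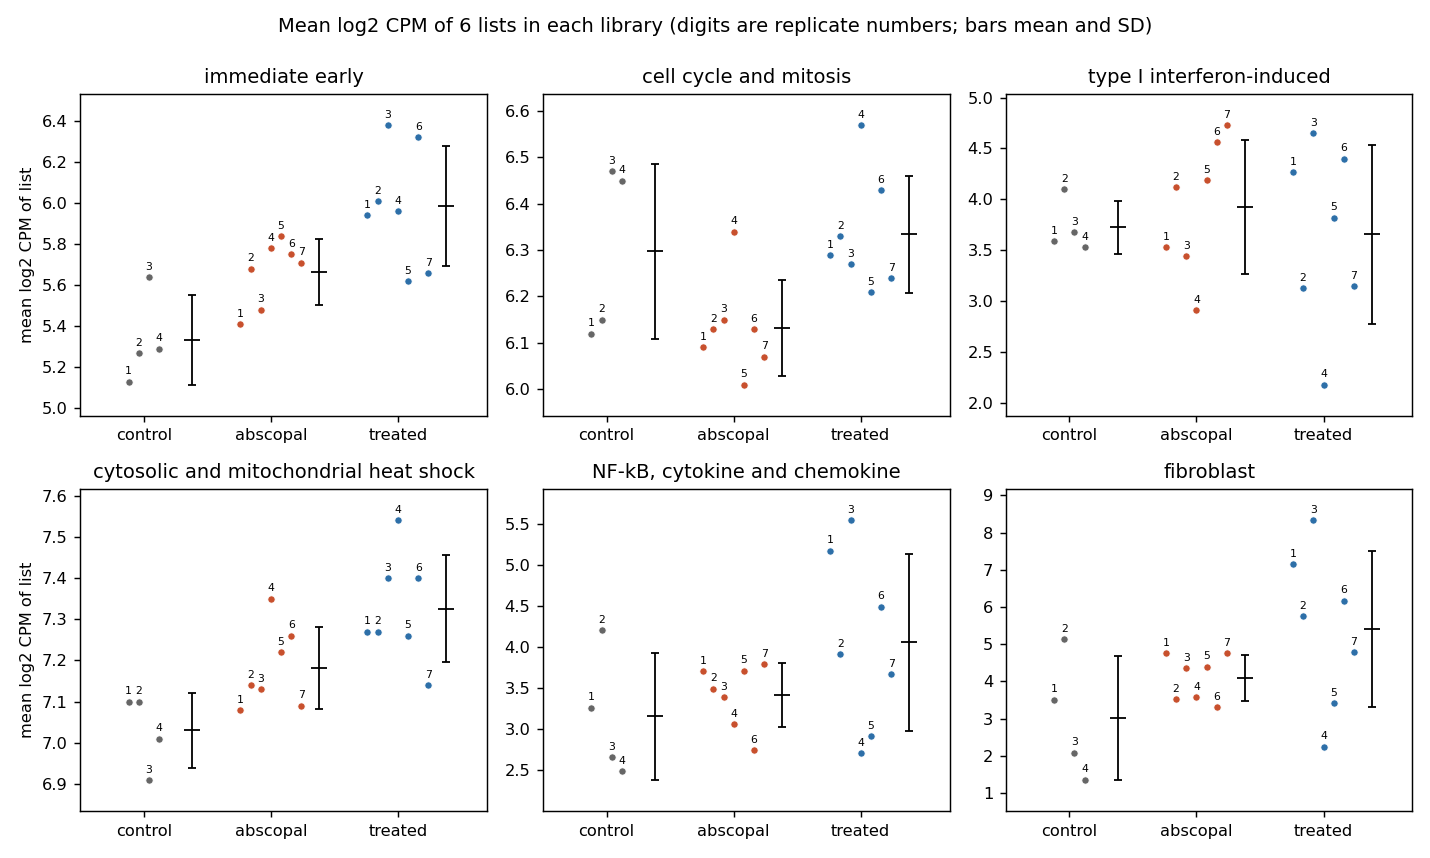
Mean log2 CPM of 6 gene lists in each CD45- library of day 3, by group, with the replicate number over each point and bars for mean and SD (vertical axes differ and do not start at 0). Among the 11 control and histotripsy-abscopal libraries, control replicates 1, 2 and 4 lie below all histotripsy-abscopal libraries for the immediate early list, control replicates 3 and 4 lie highest for the cell cycle list, and control replicate 2 is highest for the NF-kB and fibroblast lists.

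No cell cycle gene passed the adjusted test, and most members had small negative fold changes. Of 35 members tested out of 36 listed, 33 were lower and 2 higher, and the median of their log2 fold changes was -0.19. At an unadjusted p under 0.05 stood 8 lower members, beside 2.47% of all genes, and 1 higher. The lower members included Ccnb1, the cyclin that takes cells into mitosis (-0.36), Ccnb2 (-0.25), the spindle kinase Aurka (-0.27) and its activator Tpx2 (-0.26), the kinetochore motor Cenpe (-0.23), the replicative helicase subunits Mcm4 (-0.40) and Mcm6 (-0.24), and the helicase loader Cdc6 (-0.52). The higher member was Cdkn1a, the cyclin-dependent kinase inhibitor p21, at 0.45. Ccnb1 was at 38.9 to 53.8 CPM against 49.9, 49.1, 66.5 and 75.9 CPM, and only control replicates 3 and 4 were above every histotripsy-abscopal library. Mki67, the proliferation marker Ki-67, was at 58.3 to 91.9 CPM against 85.6, 92.9, 73.3 and 96.8 CPM, with a log2 fold change of -0.19 and an interval of -0.48 to 0.10.

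Among the 11 control and histotripsy-abscopal libraries, control replicates 3 and 4 had the highest cell cycle levels. Control replicates 1 and 2 lay within the histotripsy-abscopal range. Averaged over the list, log2 CPM was 6.01 to 6.34 in histotripsy-abscopal libraries and 6.12, 6.15, 6.47 and 6.45 in control replicates 1 to 4. Leaving out control replicate 3 gave a list median of -0.12 and leaving out control replicate 4 gave -0.14, each with 28 of 35 members lower, and all 35 members had an interval within a 2-fold change. In histotripsy-treated against control tumors the list median was 0.04, with 21 of 35 members higher.

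Type I interferon-induced genes were not separated from the spread between libraries. Of 32 members tested out of 35 listed, 28 were higher, and the median log2 fold change was 0.40, while 0 members reached an unadjusted p of 0.05. Isg15, a ubiquitin-like protein induced by interferon, was at 41.1, 90.2, 42.2, 35.1, 55.5, 33.2 and 95.1 CPM in histotripsy-abscopal replicates 1 to 7 and at 40.3, 57.4, 39.5 and 27.9 CPM in control replicates 1 to 4. Only replicates 2 and 7 were above all control libraries, and the log2 fold change of 0.48 had an interval of -0.64 to 1.60. Usp18, which removes ISG15 and dampens interferon signaling, was at 2.64 to 18.2 CPM against 2.56, 5.35, 2.82 and 4.17 CPM, with replicates 5, 6 and 7 at 12.5 CPM or more and the other 4 within the control range. The mean log2 CPM of the list ran from 2.91 in replicate 4 to 4.73 in replicate 7, which takes in all 4 control values (3.53 to 4.10). Without histotripsy-abscopal replicate 6 the list median was 0.28 with 24 of 32 members higher, and over 17 alternative settings as few as 15 members were higher and the sign of the median turned in 1.

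Interferon gamma targets and antigen presentation genes were not separated between the groups. Of 21 interferon gamma response genes tested out of 28 listed, 12 were higher with a median of 0.05, and without histotripsy-abscopal replicate 6 there were 6 higher with a median of -0.11, while without control replicate 2 the median was 0.46. The sign of this median turned in 7 of 17 alternative settings and that of the MHC class I median in 5. Irf1, the transcription factor at the head of this response, was at 19.2 to 63.5 CPM (median 45.1) against 42.2, 58.9, 50.4 and 35.9 CPM, and its log2 fold change was -0.17 (interval -1.10 to 0.76). Of 17 MHC class I presentation genes tested out of 22 listed, 11 were higher with a median of 0.07. B2m, the light chain of every class I molecule, had a log2 fold change of -0.00 (interval -0.61 to 0.60), and the heavy chain genes H2-K1 and H2-D1 had -0.08 (interval -0.75 to 0.59) and 0.08 (interval -0.59 to 0.75). H2-K1 and H2-D1 are close in sequence, and reads may be divided between them. Tap1, a subunit of the peptide transporter, was at 0.10 with an interval of -0.81 to 1.0, so these libraries do not bound its change more closely than that. Among the control and histotripsy-abscopal libraries, histotripsy-abscopal replicate 6 had the most Tap1 and B2m, at 108 and 1587 CPM, and histotripsy-abscopal replicate 4 the least, at 19.2 and 677 CPM.

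Surface ligands and checkpoints were not separated either. Of 10 tested genes out of 20 listed, 5 were higher and the median was 0.01. Pvr, a ligand of the receptors TIGIT and DNAM-1, was at 59.3 to 78.7 CPM against 60.1, 70.5, 59.6 and 45.5 CPM, with overlapping groups, a log2 fold change of 0.24 and an unadjusted p of 0.0464 in edgeR's test (adjusted p = 0.959). Cd274, which encodes the checkpoint ligand PD-L1, was at 2.64 to 13.3 CPM against 1.92, 11.7, 6.04 and 3.34 CPM, and its log2 fold change of 0.03 had an interval of -0.90 to 0.96. Lgals9, the lectin galectin-9, was at 0.31 (interval -0.12 to 0.74).

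**Figure D4:**
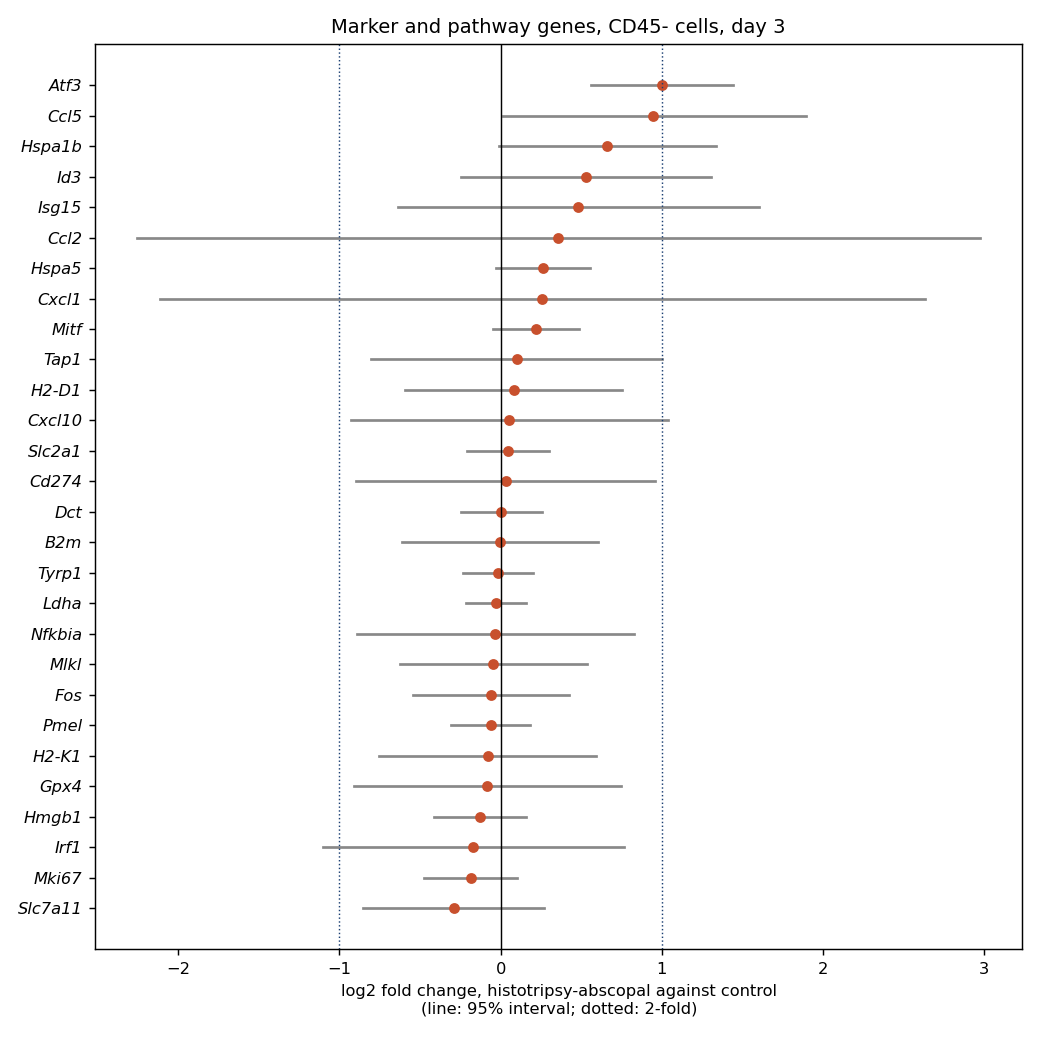
Log2 fold change, histotripsy-abscopal against control CD45- libraries of day 3, of 28 marker and pathway genes (points) with 95% intervals (lines) and dotted lines at a 2-fold change. Intervals are narrow for the pigment genes Dct, Pmel and Tyrp1 and for Ldha, and widest for the chemokine genes Ccl2 (-2.25 to 2.98) and Cxcl1 (-2.11 to 2.63).

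No heat shock gene passed the adjusted test. Of 30 cytosolic and mitochondrial heat shock genes tested, 17 were higher, with a median of 0.04, and 5 were higher at an unadjusted p under 0.05 with 0 lower, beside 2.72% and 2.47% of all genes. These 5, named after their values were seen, were the small heat shock proteins Hspb1 (0.58) and Cryab (0.42), the co-chaperones Dnajb1 (0.74) and Dnajb4 (0.47), and Bag3 (0.41), which links Hsp70 to autophagy. Dnajb4 was at 39.4 to 68.3 CPM (median 50.5) against 34.5, 31.6, 48 and 27.5 CPM, with control replicate 3 inside the histotripsy-abscopal range. Hspa1b, an inducible Hsp70, was at 108 to 285 CPM (median 169) against 151, 121, 105 and 98.9 CPM. Replicates 2 to 6 were above all control libraries and replicates 1 and 7 were not, and the log2 fold change of 0.66 had an interval of -0.01 to 1.34. Hspa1a, a near-identical copy that can share reads with Hspa1b, was at 1.10 (interval -1.16 to 3.40). The constitutive chaperonins Cct2, Cct3 and Cct5 and the mitochondrial Hspd1 and Hspe1 were between -0.15 and -0.01.

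In the endoplasmic reticulum, 20 of 29 tested chaperone and unfolded protein response genes were higher, with a median of 0.07, and 1 (Atf3) had an unadjusted p under 0.05, beside 5.19% of all genes. Hspa5, the chaperone BiP, was at 1757 to 2872 CPM (median 2077) against 1699, 1965, 1741 and 2017 CPM, and its log2 fold change was 0.26 (interval -0.03 to 0.55). Eif2ak3, the stress sensor PERK, was at 0.45 (interval -0.04 to 0.95), and the lectin chaperone Canx at 0.07 (interval -0.13 to 0.28).

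Chemokine genes varied widely between libraries of the same group. Of 23 NF-kB, cytokine and chemokine genes tested out of 37 listed, 18 were higher, with a median of 0.13, and 1 had an unadjusted p under 0.05, a share near the 5.19% of all genes. That gene was Ccl5, a T cell chemokine, at 5.49 to 13.1 CPM (median 9.59) against 7.67, 9.24, 2.82 and 0.834 CPM, a log2 fold change of 0.94 with an interval of 0.01 to 1.89. Cxcl1, a neutrophil chemokine, was at 0.948 to 13.9 CPM against 3.19, 21.4, 4.43 and 0.417 CPM, and Ccl2, a monocyte chemokine, was at 0.948 to 8.32 CPM against 1.28, 11.2, 0.806 and 0 CPM. Control replicate 2 was above every histotripsy-abscopal library for both. Nfkbia, the inhibitor of NF-kB and also its target, was at 154 to 250 CPM against 238, 370, 150 and 143 CPM, with a log2 fold change of -0.03 (interval -0.89 to 0.83). Leaving out control replicate 2 gave a list median of 0.74, whereas leaving out replicate 3 or 4 gave -0.03 and -0.02, so its sign rested on which control library was counted.

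Fibroblast markers moved in the same libraries. The summed level of 14 fibroblast markers was 383, 1280, 120 and 60.5 CPM in control replicates 1 to 4, 218 to 927 CPM in histotripsy-abscopal libraries (median 641) and 106 to 15400 CPM in histotripsy-treated libraries (median 2340), with no marker at 0 in all 11 libraries. Of 13 tested, 11 were higher in histotripsy-abscopal tumors with a median of 0.48, and 0 reached an unadjusted p of 0.05. The summed level of 12 endothelial markers was 77.7 to 117 CPM against 89.9 to 178 CPM in control tumors. The part of fibroblast content in the chemokine and interferon values was not tested.

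Genes of lytic cell death differed little. Of 18 genes tested out of 22 listed, 9 were higher with a median of -0.02, and 2 were lower at an unadjusted p under 0.05, beside 2.47% of all genes. Pycard, the adaptor ASC of the inflammasome, was at 28.8 to 47.9 CPM (median 37.2) against 55, 56.4, 45.1 and 53 CPM, where only histotripsy-abscopal replicate 2 reached the lowest control value, and its log2 fold change was -0.48 (interval -0.80 to -0.15, edgeR adjusted p = 0.833). Gsdme, a pore-forming gasdermin cut by caspase 3, was at -0.36 (interval -0.71 to 0.00). Mlkl, the pore protein of necroptosis, was at -0.05 (interval -0.63 to 0.54). Ripk3, the kinase that activates MLKL, had 0 to 2 counts in each of the 11 libraries and was not tested, and the alarmin Hmgb1 was at -0.13 (interval -0.41 to 0.15).

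The ferroptosis and glutathione list had 12 of 25 tested genes higher out of 30 listed and a median of -0.02. Steap3, an iron reductase of endosomes, was at 0.54 (interval 0.14 to 0.93) with overlapping groups, Hspb1 was higher as given above, and Vdac3, a channel of the outer mitochondrial membrane, was at -0.21 (interval -0.39 to -0.02). Gpx4, the peroxidase that clears lipid peroxides, was at 5.69 to 34 CPM against 7.67, 14.6, 25.4 and 26.7 CPM, and its log2 fold change of -0.08 had an interval of -0.91 to 0.75. Slc7a11, the cystine importer, was at 11.4 to 24.7 CPM against 16, 14.6, 32.6 and 15 CPM, where the -0.29 (interval -0.85 to 0.27) rested on control replicate 3.

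Metabolic genes differed little. Of 31 glycolysis and hypoxia response genes tested out of 32 listed, 10 were higher with a median of -0.04. Pfkfb4, which makes the activator of phosphofructokinase, was at 2.84 to 5.61 CPM against 1.92, 1.95, 2.02 and 2.50 CPM with no overlap, a log2 fold change of 0.85 (interval 0.19 to 1.55) at very low counts. Ddit4, an inhibitor of mTORC1 induced by hypoxia, was at -0.41 and the hexokinase Hk2 at -0.34. Ddit4 was at 88.2 to 141 CPM against 102, 124, 144 and 213 CPM, so that control replicates 3 and 4 lay above every histotripsy-abscopal library and control replicates 1 and 2 within their range. Ldha, lactate dehydrogenase, was at -0.03 (interval -0.22 to 0.16) and the glucose transporter Slc2a1 at 0.05 (interval -0.21 to 0.30). Of 44 nuclear respiratory chain genes tested out of 46 listed, 23 were higher with a median of 0.00, and 42 had an interval within a 2-fold change. Of 7 respiratory genes of the mitochondrial genome tested out of 13 listed, 1 was higher with a median of -0.04, and mt-Cytb was at 3734 to 7425 CPM against 7690, 6241, 4227 and 5076 CPM.

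No gene of the TGF-beta and BMP list passed the adjusted test against control. These pathways signal through Smad proteins, raise their own inhibitors Smad7, Ski and Skil, and induce the Id genes, whose proteins block basic helix-loop-helix factors. Against control, 14 of 21 tested genes out of 28 listed were higher with a median of 0.06. Smad7 was at 13.2 to 25 CPM (median 21.6) against 12.1, 15.6, 10.5 and 10.8 CPM, and only replicates 4 and 5 lay below the highest control library. Its log2 fold change was 0.74 (interval 0.23 to 1.25, edgeR adjusted p = 0.835), with Skil at 0.40 and Ski at 0.30. Against the same control libraries Smad7 in histotripsy-treated tumors was higher by 1.43 (adjusted p = 0.0256) and Skil by 0.79 (adjusted p = 0.0444).

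Directly between histotripsy-treated and histotripsy-abscopal tumors, 16 of 10921 genes passed the test (0.147%), 10 higher (0.0916%) and 6 lower (0.0549%) in the treated tumor, and Id1, Id2 and Id3 were 3 of the 10. With library totals the counts were 20 higher and 5 lower. With the replicate number as a block they were 61 higher and 56 lower, though the labels do not say whether a number marks 1 mouse. In the same comparison all 13 tested fibroblast markers had higher levels in the treated tumor, with a median log2 difference of 2.44, and the part of fibroblast content in these calls was not tested. Id1 was at 8.07 to 11.4 CPM in histotripsy-abscopal tumors (median 9.73) and at 18 to 46.2 CPM in histotripsy-treated tumors (median 20), without overlap. It was higher in the treated tumor by 1.48 on the log2 scale (SE 0.24, edgeR adjusted p = 0.0138), while against control the histotripsy-abscopal difference was -0.40 (interval -1.03 to 0.22). In control replicates 1 to 4 Id1 was at 5.75, 7.78, 18.9 and 15.4 CPM. Histotripsy-treated against control, Id1 did not pass the test (edgeR adjusted p = 0.179). Id3 was at 13.2 to 27.2 CPM in histotripsy-abscopal and 23.9 to 96.1 CPM in histotripsy-treated tumors, a difference of 1.68 (SE 0.28, adjusted p = 0.0138). In control tumors Id3 was at 5.11 to 21 CPM, and treated against control it passed the test (edgeR adjusted p = 0.0216). Id2 was at 985 to 1254 CPM in histotripsy-abscopal and 1396 to 2153 CPM in histotripsy-treated tumors, a difference of 0.62 (adjusted p = 0.0215). Against control Id2 was at 0.01 in histotripsy-abscopal tumors.

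The genes lower in the treated than in the histotripsy-abscopal tumor included regulators of transcription and of the cytoskeleton. Rora, a nuclear receptor of the circadian clock, was at 121 to 139 CPM in histotripsy-abscopal, 101 to 144 CPM in control and 78.3 to 105 CPM in histotripsy-treated tumors, a treated difference of -0.53 (edgeR adjusted p = 0.0138). Mylk, the kinase of myosin light chain, was at -0.79 (adjusted p = 0.0245) and the homeobox factor Irx3 at -0.66 (adjusted p = 0.0282). Ahnak2, a large scaffold protein, was at -0.94 (adjusted p = 0.0332), with 105 to 173 CPM in histotripsy-abscopal and 53.8 to 91.8 CPM in histotripsy-treated tumors. The number of genes called between these 2 groups went from 0 without histotripsy-abscopal replicate 1 to 99 without histotripsy-treated replicate 5, so each of these calls depends on the libraries counted.

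**Figure D5:**
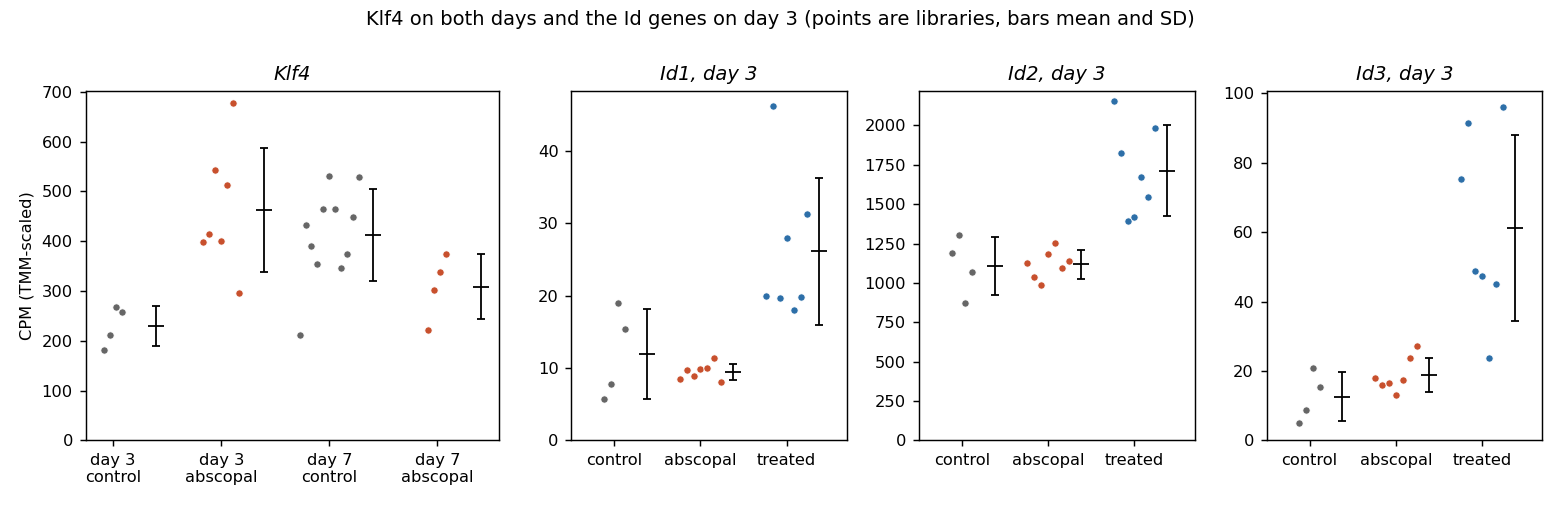
TMM-scaled CPM of Klf4 in CD45- libraries of day 3 and day 7, scaled together over both days (left), and of Id1, Id2 and Id3 on day 3 (right 3 panels), with points for libraries and bars for mean and SD. Klf4 is higher in histotripsy-abscopal than in control libraries on day 3 but not on day 7, and the Id genes are higher in histotripsy-treated than in histotripsy-abscopal libraries, with overlap for Id3.

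Whether the histotripsy-abscopal difference changed with time was tested over the 36 CD45- libraries of both days as the day 7 minus the day 3 log2 fold change. It differed for 1 of 11548 genes (0.00866%), and that gene was Klf4. On day 7 Klf4 was at 221, 303, 339 and 374 CPM in the 4 histotripsy-abscopal libraries and at 211 to 531 CPM in the 11 control libraries (median 434), with overlapping groups. In this fit the log2 fold change of Klf4 was 1.0 on day 3 (edgeR adjusted p = 0.0429) and -0.43 on day 7 (adjusted p = 0.438), a difference of -1.43 (SE 0.25, adjusted p = 0.0370). The call was lost with library totals (adjusted p = 0.152) and with limma-voom (0.0541), and leaving out single libraries of the 3 groups other than the day 7 control gave adjusted p-values from 0.00686 to 0.140. It was lost without histotripsy-abscopal replicates 3, 5 or 6, control replicates 1, 2 or 4, or day 7 histotripsy-abscopal replicates 1, 2 or 3. The day 3 control libraries had the lowest mean Klf4 of the 4 groups, and the day and any batch of the libraries cannot be told apart.

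On day 7, 2 of 11548 genes (0.0173%) passed the test of histotripsy-abscopal against control, and other lists had the higher medians. In the fit of both days, the day 7 median of the immediate early list was 0.03 with 17 of 28 members higher, that of the heat shock list 0.00 and that of the cell cycle list -0.09. The interferon gamma and MHC class I lists had day 7 medians of 0.67 and 0.64, with 20 of 21 and 15 of 17 members higher, beside 0.05 and 0.07 on day 3. The NF-kB, cytokine and chemokine list had a day 7 median of 0.63 with 22 of 23 members higher, beside 0.13 on day 3. The type I interferon median was 0.48 on day 7, with 32 of 32 higher. The fibroblast median was 2.91 on day 7 and 0.48 on day 3. No member of these lists other than Klf4 passed the test of the difference between the days, and the part of fibroblast content in the day 7 medians was not tested.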

How the data were processed

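RNA of sorted CD45- cells was sequenced as QuantSeq 3' single-end libraries. The authors demultiplexed with bcl2fastq, trimmed with Trim Galore 0.5.0, aligned to GRCm38 with STAR 2.6.0, collapsed unique molecular identifiers and counted with featureCounts, and deposited whole-number counts per gene without normalization. The strand setting is not given in the sources used here, so overlapping antisense genes cannot be told apart. No normalization by length applies to 3' counts.

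The counts of all 18 day 3 CD45- libraries were fitted in edgeR 4.0.16 (R 4.3.3) with group as the only term, TMM factors, filterByExpr (minimum count 10, minimum total 15) and the quasi-likelihood F test, adjusted by Benjamini-Hochberg over 10921 of 55487 genes and called under 0.05. CPM are scaled by TMM and relate to the counts of tested genes. Intervals are 95% Wald intervals from the same fit. The 36 libraries of both days were fitted together for the difference between the days (11548 genes). Total counts per library limit precision, and counting error in particular for genes of a few CPM. The scripts were tested on simulated counts.

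Named genes were 30 fixed genes (1 of which is not reported here), the 8 higher and 8 lower genes of smallest unadjusted p among non-overlapping genes with a mean of at least 10 CPM, the 2 genes of smallest p in each list, and up to 4 genes per direction called between treated and histotripsy-abscopal tumors and up to 3 called between the days. List members at an unadjusted p under 0.05 outside this rule were named after their values were seen, as were Hspa1a and the chaperonins. The libraries, lists and genes were chosen with earlier results of these data known, so lists are described by counts and medians without a test. Smaller marker lists not described elsewhere had few tested members: 3 of 8 pericyte and smooth muscle genes (median 0.39), 1 of 10 keratinocyte (0.64), 0 of 10 skeletal muscle, 4 of 7 erythroid (0.42), 1 of 6 adipocyte (-1.10), 5 of 7 Schwann (0.28, Sox10 among them), 1 of 8 general blood-derived (-0.08), 1 of 14 monocyte and macrophage (0.66) and 1 of 10 T cell genes (-0.05).

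Alternatives were library totals, no filter, the 2 groups alone, the replicate number as a block, DESeq2 1.42.0, limma-voom (limma 3.58.1), each library of the groups with at most 7 left out, and, chosen after seeing the data, the day 3 comparison in the fit of both days. No 2 libraries of a group agreed within sampling noise (smallest chi-square per degree of freedom 1.99 over 27 pairs). Gene positions are from GENCODE (GRCm38), where 76 of 77 named genes matched once.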

Additional observations from a re-analysis of the deposited data

Results flagged for a closer look

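In the test of the change between the days, the Klf4 log2 fold change against control was lower on day 7 than on day 3 by a difference of -1.43, the single call among 11548 genes.

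Of 201 sets of 4 or 7 library values examined, 10 held a library farther from the rest than Dixon's 95% limit, and chance gives about 1 in 20. Control replicate 2 was high for Ccl2 (11.19 CPM, others 0 to 1.278) and for Cxcl10 (18 CPM, others 6.045 to 7.669). Control replicate 3 was high for Slc7a11 (32.64 CPM, others 14.59 to 15.98) and for Slc2a1 (194.6 CPM, others 149.8 to 153.2). Control replicate 4 was high for Kif20b (67.17 CPM, others 47.93 to 50.78) and for Pfkfb4 (2.503 CPM, others 1.917 to 2.015). Among histotripsy-abscopal libraries, replicate 6 was low for Nfkbia (153.6 CPM, others 211 to 250.2) and for the mean log2 CPM of the nuclear respiratory chain list (7.06, others 7.56 to 7.89). Replicate 7 was low for Trpm1 (282.5 CPM, others 345.5 to 388.1), and replicate 4 was high for the mean log2 CPM of the cell cycle list (6.34, others 6.01 to 6.15).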

How the results depend on the processing

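Of 1290 alternative values for 76 named genes, 1194 kept the direction and side of the threshold, 18 gained a call and 78 changed sign. Of 272 list medians 1 moved by more than the spread between libraries, the NF-kB, cytokine and chemokine median of 0.74 without control replicate 2. The sign turned in 54 of these medians, in 11 of 16 lists. The cause was not tested for any of these changes. Intervals were wide for some genes of a few CPM, such as Ccl2 and Cxcl1, and narrower for others, such as Pfkfb4.

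Histotripsy-abscopal against control, 15 genes were called with no filter on low counts (12 higher, 3 lower), 13 with DESeq2, 2 with both days fitted together (chosen after seeing the data) and 0 to 1 with a library left out, the 1 being Klf4 without histotripsy-abscopal replicate 7. Without a filter 139 genes did not overlap (93 higher, 46 lower), and with a library left out 118 to 245, which includes 225, 245, 200 and 202 without control replicates 1 to 4 and 151 and 164 without histotripsy-abscopal replicates 2 and 4. Histotripsy-treated against histotripsy-abscopal, 25 genes were called with library totals, 451 with no filter, 138 with DESeq2 and 0 to 99 with a library left out. That count was 2, 8, 10 and 8 without histotripsy-abscopal replicates 3, 5, 6 and 7, and 9, 8, 5, 78 and 30 without histotripsy-treated replicates 1, 2, 3, 4 and 7. For the difference between the days, 6 genes were called with DESeq2, 39 with no filter, 0 with library totals, 0 with limma-voom and 0 to 2 with a library left out, the 2 without histotripsy-abscopal replicate 4.

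Equal replicate numbers were not used to pair the libraries. The labels do not say whether a number marks both flanks of 1 mouse. The deviations of same-numbered histotripsy-abscopal and control libraries correlated at -0.19 to 0.29 and exceeded 0.1 in 2 of 4 pairs, with 1 of 4 correlating best with its own number. Between histotripsy-abscopal and histotripsy-treated libraries the correlations were 0.04 to 0.41, over 0.1 in 5 of 7 pairs, with 4 of 7 best with their own number. With the replicate block 1 gene was called against control and 117 between histotripsy-treated and histotripsy-abscopal tumors, and the type I interferon, interferon gamma and MHC class I list medians were -0.04, -0.28 and -0.20. Signs that turned with the block were those of H2-D1 (-0.25), Tap1 (-0.36), Cd274 (-0.36), Nfkbia (0.21), Cxcl10 (-0.032), Slc2a1 (-0.007), mt-Cytb (0.11) and Id2 (-0.003).

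With limma-voom the sign turned for H2-D1 (-0.004), Tap1 (-0.046), Fos (0.011), Nfkbia (0.065) and Cxcl10 (-0.14). Without a filter it turned for Tyrp1 (0.014), B2m (0.022) and Nfkbia (0.005), with Ldha at 0, and with library totals for Dct (-0.016) and Rora (-0.009), with Id2 at 0. With each library left out in turn, the log2 fold change ran from -0.079 to 0.034 for Tyrp1, -0.067 to 0.054 for Dct, -0.15 to 0.14 for B2m, -0.20 to 0.038 for H2-K1, -0.074 to 0.26 for H2-D1, -0.11 to 0.34 for Tap1, -0.22 to 0.60 for Cd274, -0.25 to 0.19 for Fos, -0.20 to 0.32 for Nfkbia, -0.17 to 1.70 for Cxcl1, -0.10 to 2.63 for Ccl2, -0.14 to 0.54 for Cxcl10, -0.17 to 0.059 for Mlkl, -0.33 to 0.14 for Gpx4, -0.41 to 0.10 for Slc7a11, -0.062 to 0.02 for Ldha, -0.25 to 0.034 for mt-Cytb, -0.083 to 0.10 for Id2, -0.082 to 0.083 for Rora and -0.054 to 0.20 for Mylk.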
